A study of Homo sapiens with 30 samples.

Results

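The genes that encode the proteins of the mitochondrial ribosome were followed in 2 human cancer cell lines treated with Omomyc. They were taken as the rows of the RPKM table whose Ensembl identifier belongs to a protein-coding gene with a symbol that starts with MRPL or MRPS followed by a digit, and 78 of the 57992 rows met this rule. A further 77 rows with such names were not protein coding, most of them pseudogenes, and were left out. HCT116 is a colorectal carcinoma line and Ramos is a Burkitt lymphoma line, labelled as carrying a MYC translocation. Omomyc is a recombinant protein derived from the dimerization and DNA-binding region of Myc. It can pair with Max or with itself and occupy the E box CACGTG, the DNA site of Myc and Max. Total RNA depleted of ribosomal RNA was sequenced from 10 groups of 3 libraries. HCT116 cells were untreated or received Omomyc at 2 μM or 10 μM for 6 h or 24 h. Ramos cells were untreated or received 500 nM or 2.5 μM for 6 h or 24 h. The labels give no time for the untreated cells, and the untreated group of each line served for both 6 h and 24 h. Treatment and time in culture can therefore not be told apart in the comparisons with untreated cells. The lower HCT116 dose is 2 μM in the labels and 2.5 μM in the study's methods, and 1 label field gives 4 h where the titles give 24 h. Per the methods, HCT116 cells took up Omomyc with ProteoJuice, a protein transfection reagent, and whether the untreated cells received the reagent is unclear. The Ramos experiment is not described there. The labels do not say that the replicates were separate cultures, so the p-values measure the spread between these libraries, which may be technical.

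The mitochondrial ribosome translates the few mRNAs of the mitochondrial genome, all of which encode subunits of the respiratory chain and the ATP synthase. Its ribosomal RNAs come from the same genome, while all of its proteins are encoded in the nucleus, made in the cytosol and imported. The proteins of the small subunit hold the mRNA and the decoding site, and those of the large subunit surround the peptidyl transferase center and the exit tunnel. Compared with bacterial ribosomes, the mitochondrial ribosome has gained proteins of its own, so that both ancient and mitochondria-specific proteins occur in each subunit. Of the 78 genes, 51 encode proteins of the large subunit, among them MRPS18A and MRPS30 in spite of their names, and 26 encode proteins of the small subunit. MRPS36 belongs to neither, since its product is a component of the 2-oxoglutarate dehydrogenase complex. Homologs among the ribosomal proteins of bacteria are known for 48 of the proteins, and 30 were counted as having none there.

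Since Omomyc binds E boxes, the promoters were searched for CACGTG in RefSeq windows (GRCh38.p14) of 250 bases before to 50 bases after the annotated start. Windows existed for 69 of the genes, 85 windows in all, because some genes have several starts. The E box, which reads the same on both strands, occurred in the windows of 9 genes. These 9 sites are shown as 30 bases each on the strand of the gene, 5′ to 3′, with the E box in capitals, because they are the places at which the deposited expression values can be set against a known DNA motif of Omomyc.
MRPL37: tgcgcttcacctCACGTGaggattttccag
MRPS18C: aatcataagcctCACGTGacctgccgcgta
MRPL36: acgtgggcacgcCACGTGaccccccccccc
MRPL22: ttttcggaagccCACGTGctttcggccttt
MRPL14: caggtgtacacaCACGTGtgagtgtactag
MRPS33: gctcgggcggttCACGTGcatcacacaaat
MRPS2: cgacggccaggtCACGTGactggggagcga
MRPL49: cggctCACGTGgggaaggccaggcctccca
MRPL45: cactcccgcgagCACGTGcgcgtcctcgct
In MRPL36, whose site is at chr5:1799876-1799905 on the minus strand, the E box lies 56 bases before the start, and in MRPS2, at chr9:135499897-135499926 on the plus strand, it also lies 56 bases before the start. In MRPS18C the site at chr4:83455867-83455896 on the plus strand has its E box 179 bases before the start. The others lay at chr1:54199985-54200014 (MRPL37), chr5:154940885-154940914 (MRPL22), chr11:65121933-65121962 (MRPL49) and chr17:38297023-38297052 (MRPL45) on the plus strand, and at chr6:44126223-44126252 (MRPL14) and chr7:141014763-141014792 (MRPS33) on the minus strand. MRPL14 was the one gene with its E box after the start.

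The E box was present in 10.6% of the windows of these genes and in 7.26% of all 35116 windows of the same length. Other motifs known from promoters of mitochondrial genes were searched on both strands in the same way. The core of the YY1 site, AAGATGGC, occurred in 27.1% of the windows, those of 21 genes, against 2.89% of all windows. The ETS core CCGGAAG occurred in 38.8% against 10.3%, and the NRF1 core CGCANGCG in 18.8% against 10.0%. No motif contains another in full, although matches can overlap in part. A match describes the letters of the window only. The study reports that Omomyc also bound noncanonical E boxes of the VEGFA promoter in vitro, about as strongly as the consensus. Such variants were not searched, so windows without CACGTG may hold other sites.

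All 78 genes were expressed in every library. The lowest single value was 7.16 RPKM (reads per kilobase of transcript, scaled to the mapped reads of the library) and the lowest mean over all libraries was 12.8 RPKM, so every gene passed the filter on low values in each comparison. Over all rows, RPKM added up to 593633 in the lowest library and 1051040 in the highest, and the correlation of replicates over genes was between 0.973 and 0.996. The 10 genes with the highest values took 23.8 to 31.4% of the sum in untreated HCT116 cells and 42.3 to 54.2% after 6 h at 10 μM, and 44.3 to 49.4% in untreated Ramos cells and 35.6 to 39.4% after 24 h at 2.5 μM. The RN7SL and RN7SK genes, which encode noncoding RNAs, alone took 15.5 to 21.5%, 27.5 to 42.5%, 33.9 to 38.9% and 26.3 to 29.5% of the sum in these groups, in the same order. RPKM are shares of a library, and these shares moved with the treatment, so the counts against untreated cells and between the lines are also given after rescaling all libraries to an equal sum. The third HCT116 library at 10 μM and 6 h stood apart. EPCAM, CDH1, KRT8 and KRT18, epithelial markers, lay between 11.4 and 812 RPKM in HCT116, CDX2 between 2.52 and 4.66 and KRT20 between 0.270 and 0.748, while VIL1 and LGALS4 did not exceed 0.0602 and 0.193. All 8 B cell markers were at 38.6 RPKM or more in Ramos.

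In untreated cells, the levels of the genes spanned about one order of magnitude. RPKM is a value per length, so levels of different genes can be compared roughly. Pseudogenes or genes with shared exons may have taken reads from some of them. In HCT116, the highest were MRPL51 at 111 ± 3.8 RPKM (SD, n = 3), MRPL3 at 108 ± 2.2 and MRPL20 at 80.4 ± 0.77. MRPL51 and MRPL3, both of the large subunit, did not differ beyond their spread, and MRPL20 lay below both. The lowest were MRPL50 at 11.4 ± 0.015, MRPS14 at 13.7 ± 0.73 and MRPS17 at 13.8 ± 0.51, the last pair within each other's spread. In Ramos, MRPS27, a small-subunit protein with pentatricopeptide repeats, was highest at 112 ± 5.5 RPKM, next to MRPL51 at 111 ± 5.3 and MRPS34 at 107 ± 5.1, and these 3 did not differ beyond their spread. At the lower end of Ramos were MRPL57 at 7.62 ± 0.42, MRPL50 at 12.4 ± 0.52 and MRPL2 at 12.9 ± 1.0, of which only MRPL57 stood clear of the next. The mean levels of the 78 genes in the 2 lines had a Pearson correlation of 0.624 and a Spearman correlation of 0.558 across genes, which share libraries and are not independent replicates.

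The untreated lines differed in most of the genes, with no common direction. A gene was called where limma on log2(RPKM + 0.5) gave a Benjamini-Hochberg adjusted p under 0.05 over all genes tested. Of the 78 genes, 35 were called higher in HCT116 and 30 higher in Ramos, that is 44.9% and 38.5%, and among all genes tested 45.7% were called higher and 39.0% lower in HCT116. The split went to 56 and 9 after rescaling to an equal sum, a rescaling that also moved the median of all genes to 0.62. The genes' median difference on the log2 scale was 0.03 and that of all genes was 0.09. These shares were close to those of all genes. MRPL12 stood out by its size. Its product, the homolog of bacterial L7/L12 on the stalk of the large subunit, has also been reported to bind the mitochondrial RNA polymerase. MRPL12 (chr17:81703357-81707526, plus strand, GENCODE 29 on GRCh38) read 66.5, 67.7 and 62.6 RPKM in untreated HCT116 and 14.9, 14.8 and 13.7 RPKM in untreated Ramos. The groups lay far apart, with a log2 difference of 2.14 ± 0.05 (SE; limma, adjusted p = 2.86e-08). Also higher in HCT116 were MRPL57, a mitochondria-specific large-subunit protein, by 1.23 on the log2 scale, and MRPS22, a mitochondria-specific small-subunit protein, by 1.22 (limma, adjusted p = 1.7e-06 and 8.04e-07). In the other direction, MRPS25 was at 20.6 ± 2.1 RPKM in HCT116 and 54.7 ± 4.0 in Ramos, a log2 difference of -1.39, and MRPL52 and MRPL53 differed by -1.23 and -1.11 (limma, adjusted p = 3.58e-06, 1.26e-06 and 6.72e-06). MRPL53 and MRPL12 share exon sequence on the same strand with another annotated gene (CCDC142 and AC139530.2), and reads there may have been split between the 2 genes.

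**Figure D1:**
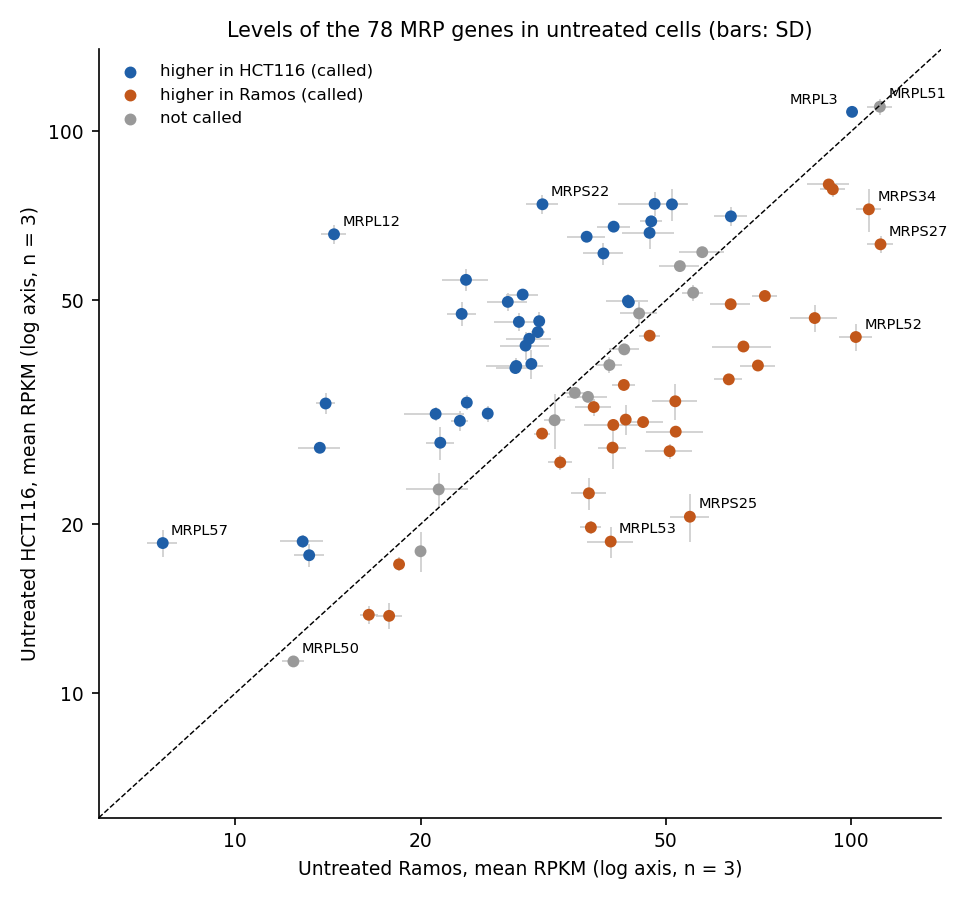
Mean RPKM of each of the 78 genes in untreated Ramos (x, log axis) and untreated HCT116 (y, log axis), n = 3 each, bars SD, dashed line equal levels. The 35 genes called higher in HCT116 lie above the line and the 30 called higher in Ramos below it, and MRPL12 is farthest from it, at 65.6 and 14.5 RPKM (56 and 9 genes after rescaling to an equal sum).

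After 24 h at 10 μM Omomyc, the comparison the study's own account of its RNA-Seq rests on, more than 1 in 2 of the genes were modestly higher in HCT116 on the deposited scale, which did not hold after rescaling to an equal sum. Called higher were 42 of 78 (53.8%) and called lower 2 (2.56%), where 19.5% of all genes tested were called higher and 15.7% lower, while after rescaling to an equal sum the split was 2 and 7. The median log2 fold change was 0.19, a 1.15-fold difference, against 0.02 over all genes, and single genes ranged from -0.30 to 0.57 with a median SE of 0.06. Rescaling to an equal sum moved the median of all genes to -0.14 and that of the 78 genes to 0.01. With median-ratio scaling, quantile normalization or an equal sum of protein-coding genes, the share of higher calls moved by no more than 10 percentage points. Summed over protein-coding genes, RPKM was between 440918 and 445392 in untreated libraries and between 442010 and 459840 at 10 μM and 24 h. Relative to the median of all genes, the genes were higher under each scaling tried, by 0.10 to 0.17. In 47 of the 78 genes every treated library was above every untreated one, and in 5 every treated library was below, where this held for 26.6% and 22.7% of all genes. With 3 against 3 libraries, an exact two-sided permutation test cannot give a p below 0.1, and 0.1 is its value for each of these. Summed over the 78 genes, RPKM was between 3354 and 3369 in the untreated libraries and between 3620 and 3875 at 10 μM. In bulk libraries, a change in RNA per cell and a change in which cells are present cannot be told apart. The count fell to 28 without the filter on low values, to 15 with all groups in one fit, and to 27 without the first or the third untreated library. With a trend on exon length removed, 24 genes were called higher and 7 lower.

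**Figure D2:**
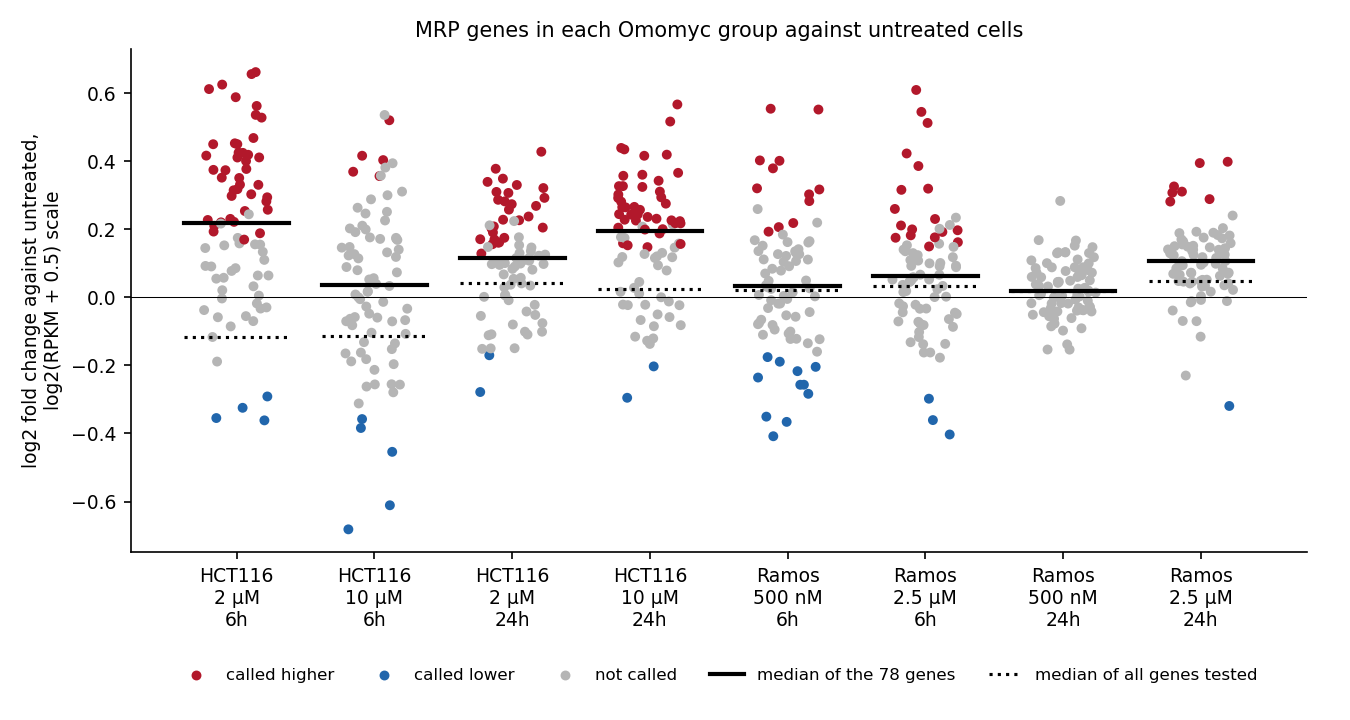
Log2 fold change against untreated cells (y, on the log2(RPKM + 0.5) scale) of the 78 genes (points) in the 8 Omomyc groups (x), with the genes' median (solid bar) and the median of all genes tested (dotted bar). At 10 μM and 24 h in HCT116 the medians are 0.19 and 0.02, with 42 genes called higher and 2 lower (2 and 7 after rescaling to an equal sum), and the points of Ramos at 500 nM and 24 h, none of them called, lie closest to 0.

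Among small-subunit genes, the largest rises at 10 μM and 24 h were those of MRPS15 and MRPS12. MRPS15, the homolog of bacterial S15, which binds the small-subunit ribosomal RNA early in assembly, lies at chr1:36455718-36464437 on the minus strand (GENCODE 29 on GRCh38). It read 44.8, 48.7 and 48.8 RPKM in untreated libraries and 72.0, 71.3 and 68.0 RPKM in treated ones. Every treated library lay above every untreated one, and the log2 fold change was 0.57 ± 0.05 (SE; limma, adjusted p = 8.61e-05). MRPS12 (chr19:38930548-38933162, plus strand), whose product is a protein of the decoding site, rose from 36.4, 36.3 and 35.8 RPKM to 52.8, 50.7 and 52.5 RPKM. Replicates differed little in either group, and the log2 fold change was 0.52 ± 0.05 (limma, adjusted p = 6.75e-05). Part of its exons lies opposite SARS2, a mitochondrial seryl-tRNA synthetase gene on the other strand. MRPS15 and MRPS12 were the 2 of the 10 genes with the largest rises that were still called after rescaling to an equal sum.

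MRPS18C, MRPS24 and MRPS7 followed. MRPS18C is 1 of 3 human homologs of bacterial S18, a protein at the mRNA platform of the small subunit, and its E box is shown above. It read 33.3, 26.7 and 31.8 RPKM in untreated libraries and 45.7, 41.1 and 38.1 RPKM in treated ones. The groups did not overlap, although both were spread widely, and the log2 fold change was 0.44 ± 0.09 (limma, adjusted p = 0.00492). Its paralogs moved less. MRPS18A, whose product sits in the large subunit, differed by 0.15 ± 0.05 (limma, adjusted p = 0.0369), a call that ended when any 1 of 5 of the 6 libraries was left out and a value that turned to -0.033 after rescaling to an equal sum. MRPS18B was at 69.2 ± 0.46 RPKM in untreated and 74.5 ± 6.1 RPKM in treated libraries, and the libraries overlapped (limma, adjusted p = 0.223). MRPS24 rose from 57.6 ± 0.75 to 77.2 ± 3.4 RPKM and MRPS7, the homolog of S7 at the exit site of the small subunit, from 60.9 ± 1.3 to 78.6 ± 8.0 RPKM (n = 3; log2 fold changes of 0.42 and 0.36; limma, adjusted p = 0.00026 and 0.00351). MRPS24 shares exons with the readthrough gene URGCP-MRPS24.

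Large-subunit genes made up the other 5 of the 10 with the largest rises. MRPL36 (chr5:1798386-1801366, minus strand), the homolog of the small zinc-binding bacterial protein L36, read 32.0, 28.6 and 31.5 RPKM in untreated libraries and 43.5, 41.6 and 38.2 RPKM in treated ones. All treated libraries were higher, with a log2 fold change of 0.42 ± 0.07 (limma, adjusted p = 0.00131). MRPL55, the homolog of bacterial L31, rose from 27.2, 27.6 and 26.0 RPKM to 35.5, 36.2 and 38.2 RPKM, by 0.43 ± 0.05 on the log2 scale (limma, adjusted p = 0.000323). MRPL52, a mitochondria-specific protein, rose from 43.0 ± 2.4 to 55.6 ± 3.0 RPKM, by 0.37 ± 0.06 (limma, adjusted p = 0.00158). MRPL21 and MRPL9 are homologs of bacterial L21 and L9. Their log2 fold changes were 0.36 ± 0.04 and 0.34 ± 0.06 (limma, adjusted p = 0.00034 and 0.00251). MRPL58, also called ICT1, is a peptidyl-tRNA hydrolase built into the large subunit that can free stalled ribosomes. It read 42.7, 42.6 and 42.8 RPKM in untreated libraries and 52.1, 55.6 and 53.6 RPKM in treated ones. All treated libraries were higher, by 0.33 ± 0.05 on the log2 scale (limma, adjusted p = 0.000773). MRPL12 read 75.3, 66.6 and 88.0 RPKM after treatment, overlapped the untreated libraries and was not called (log2 fold change 0.21; limma, adjusted p = 0.0873).

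Both genes called lower at 10 μM and 24 h encode large-subunit proteins. MRPL30 (chr2:99181079-99197626, plus strand), the homolog of bacterial L30, read 31.0, 30.8 and 32.6 RPKM in untreated libraries and 26.8, 26.0 and 23.9 RPKM in treated ones. All treated libraries were lower, with a log2 fold change of -0.30 ± 0.06 (limma, adjusted p = 0.00418). It shares exons with AC079447.1 and AC092587.1 on the same strand. MRPS30, a mitochondria-specific protein at the surface of the large subunit, read 63.7, 59.5 and 58.7 RPKM and then 55.4, 53.2 and 49.2 RPKM. The groups did not overlap and the log2 fold change was -0.20 ± 0.06 (limma, adjusted p = 0.0238), but the call ended without the first untreated library or the third treated one (adjusted p = 0.0956 at the highest). MRPS36, the gene of the dehydrogenase component, read 16.9, 16.5 and 17.5 RPKM in untreated and a mean of 15.5 ± 1.6 RPKM in treated libraries, with overlap (limma, adjusted p = 0.222).

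**Figure D3:**
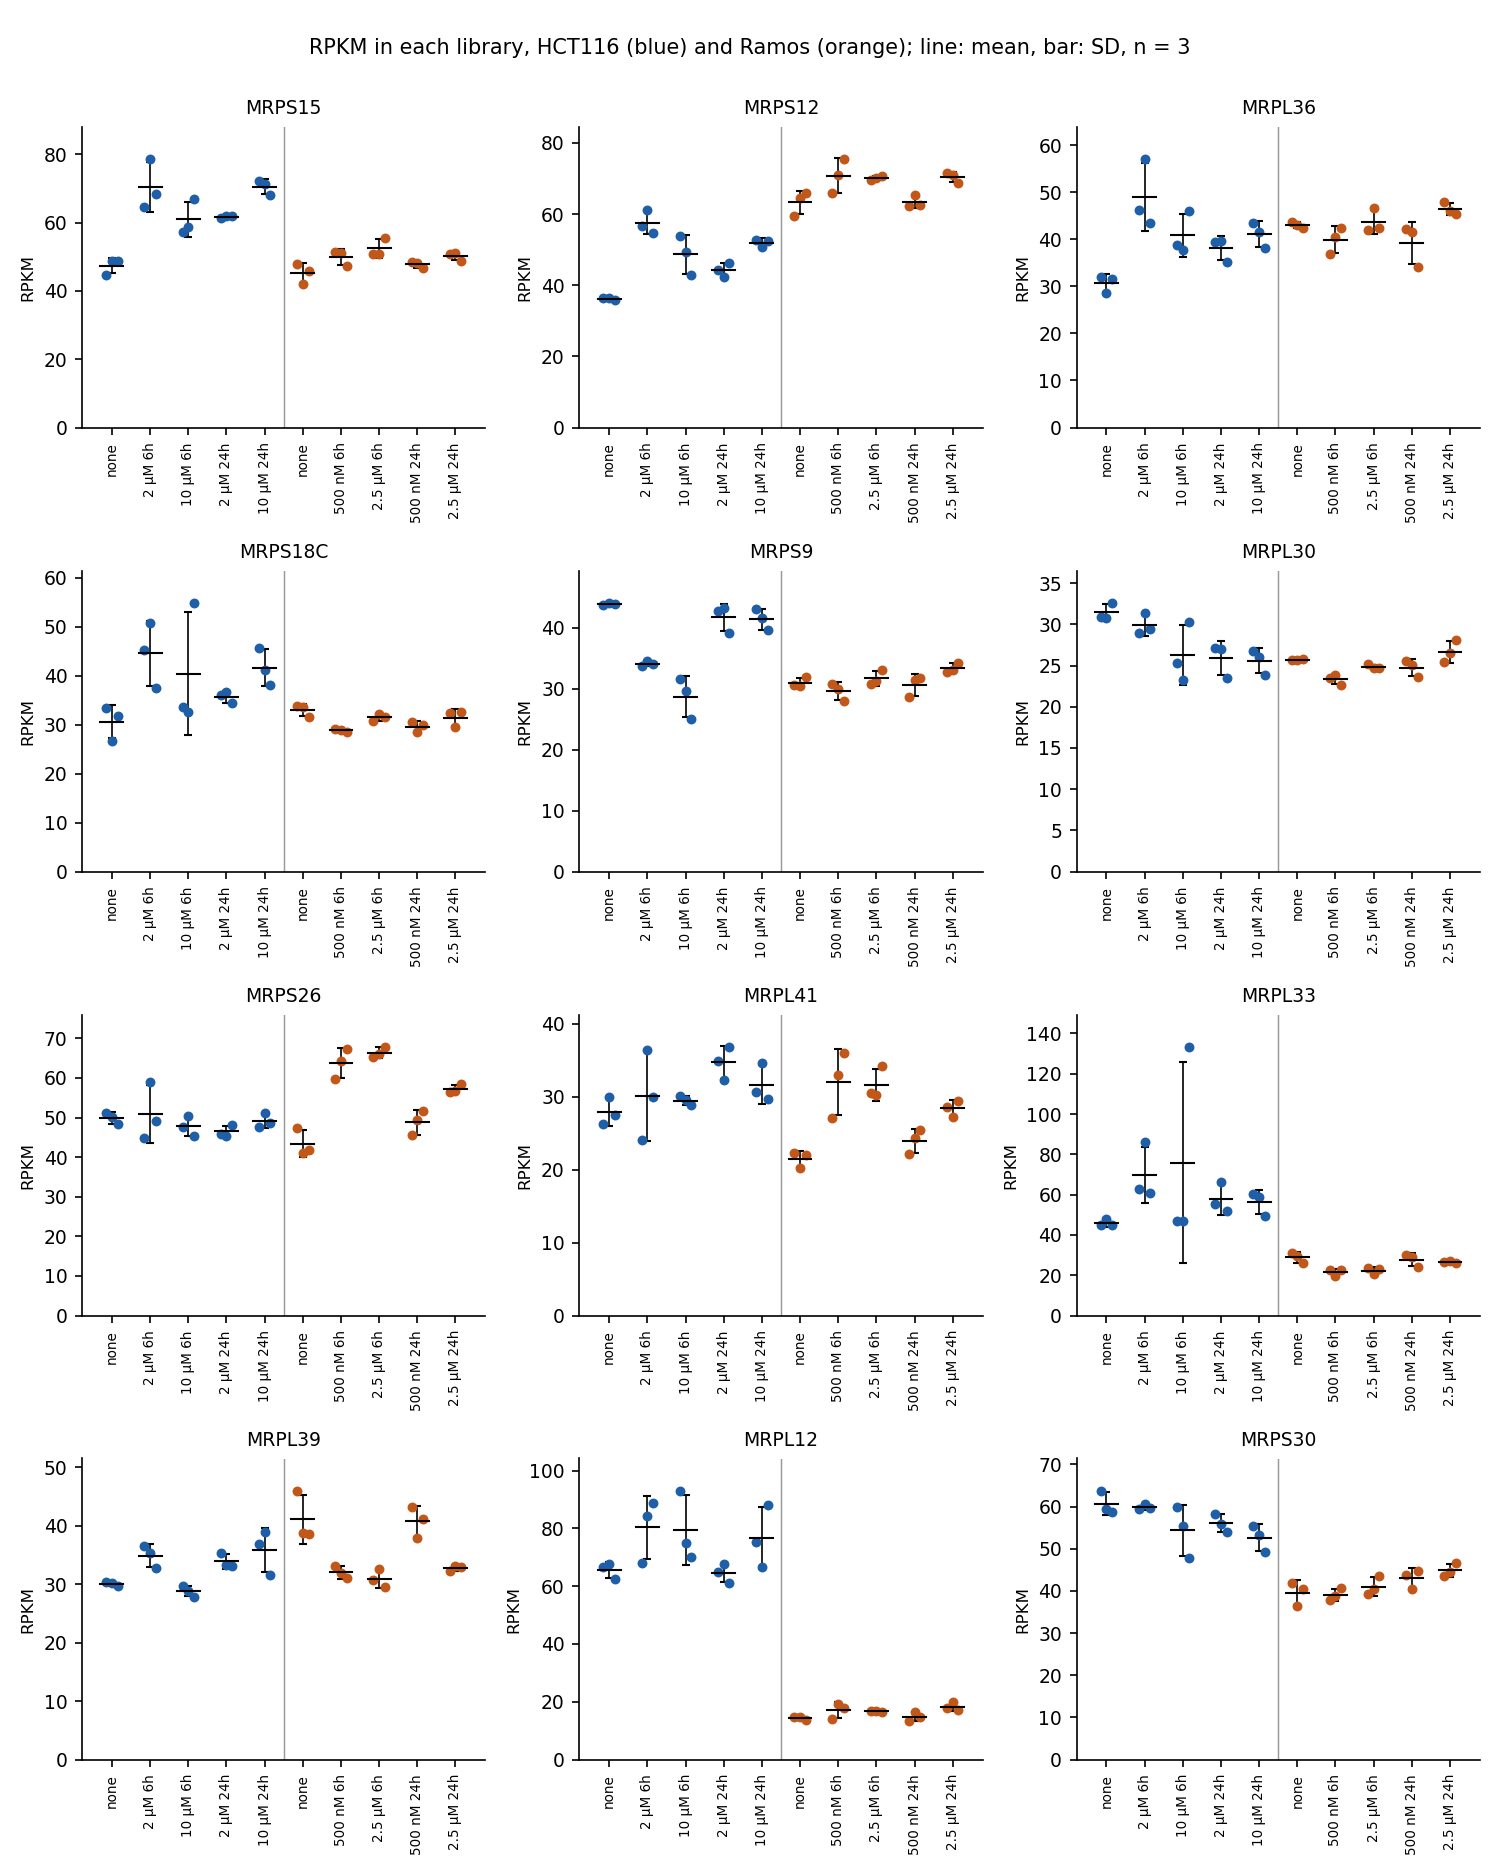
RPKM of 12 genes in each of the 30 libraries (points; y from 0), with the group mean (line) and SD (bar), n = 3, for HCT116 (blue) and Ramos (orange) by dose and time (x; none, untreated). MRPS15 is between 44.8 and 48.8 in untreated HCT116 and between 68.0 and 72.0 at 10 μM and 24 h, MRPS26 is between 41.1 and 47.2 in untreated Ramos and between 59.8 and 67.9 at 6 h, and 1 library at 10 μM and 6 h reads 133 for MRPL33 where the other 2 read 47.1 and 46.9.

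The rises at 10 μM and 24 h were spread over both subunits. Of the 51 large-subunit genes 30 were called higher and 2 lower, with a median log2 fold change of 0.22, and of the 26 small-subunit genes 12 were called higher and none lower, with a median of 0.12. Proteins with a homolog among bacterial ribosomal proteins had 30 of 48 called higher and a median of 0.22. Those counted as having none had 12 of 30 and a median of 0.14. Of the 9 genes with an E box in the window, 7 were called higher and none lower, at a median of 0.20, and of the 60 with a window but no E box, 30 were higher and 2 lower, at a median of 0.18. The 7 were MRPS18C, MRPL36, MRPL14, MRPL22, MRPS33, MRPS2 and MRPL37, with log2 fold changes from 0.44 to 0.15, while MRPL45 was at 0.01 and MRPL49 at 0.15 (limma, adjusted p = 0.893 and 0.0661). After rescaling to an equal sum, none of the 9 genes with an E box was called in either direction and their median was 0.01. Genes with the YY1 core had a median of 0.21, those with the NRF1 core 0.20 and those with the ETS core 0.18. Genes split at the median exon length of 2539 bases had 21 of 40 shorter and 21 of 38 longer ones called higher. These splits were not tested, and 34 of the genes have pseudogenes named after them, 75 in all, that could have taken some of their reads. Without such pseudogenes, 25 of 44 genes were called higher, and with them 17 of 34.

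At 2 μM and 24 h, the genes called were again mostly higher on the deposited scale. This did not hold after rescaling to an equal sum or after removing a trend on exon length. Called higher were 28 (35.9%) and lower 2 (2.56%), where 16.6% of all genes tested were called higher and 10.8% lower. The split was 2 and 10 after rescaling to an equal sum. With median-ratio scaling it was 14 and 6, and with the length trend removed 12 and 10. The median log2 fold change was 0.12 against 0.04 over all genes. MRPL2, which lies at the peptidyl transferase center, had the largest rise, from 18.2, 19.2 and 18.4 RPKM to 24.5, 25.5 and 25.7 RPKM. The treated libraries were all higher, by 0.43 ± 0.05 on the log2 scale (limma, adjusted p = 0.000881). MRPS15 rose by 0.38 and MRPL23, a protein at the exit tunnel, by 0.35 (limma, adjusted p = 0.00119 and 0.00469). Lower were MRPL30 at -0.28 and MRPS27 at -0.17 (limma, adjusted p = 0.0139 and 0.0216). The call of MRPL30 ended without the third untreated library and that of MRPS27 without any 1 of 3 libraries. The count of 30 went to 17 without the first untreated library, 18 without the third or without the first treated one, and 6 with all groups in one fit. The comparisons within a line share the 3 untreated libraries, so they are not independent of each other. Between the doses at 24 h, limma called none of the 78 genes, with 10 at an unadjusted p under 0.05, where 0.14% of all genes tested were called higher and 0.0399% lower at 10 μM and 1739 genes had an unadjusted p under 0.05. MRPS12 differed by 0.23 ± 0.05 on the log2 scale and MRPS15 by 0.19 ± 0.05 (limma, adjusted p = 0.197 and 0.24), and the median difference of the genes was 0.06.

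After 6 h at 2 μM, many of the genes were higher on the deposited scale while more genes of the table were lower than higher, and after rescaling to an equal sum most calls among them were lower. Called higher were 42 (53.8%) and lower 4 (5.13%), where 15.5% of all genes tested were called higher and 31.8% lower, and the split was 4 and 21 once libraries had an equal sum. The median log2 fold change was 0.22 and that of all genes was -0.12, and 73 of the 78 genes lay above the latter. Rescaling to an equal sum moved the median of all genes to -0.42, and the genes' median exceeded that of all genes by 0.21 to 0.35 under the scalings tried. With median-ratio scaling, quantile normalization or an equal sum of protein-coding genes, the share of higher calls moved by no more than 10 percentage points. In 46 genes the treated libraries all lay above the untreated ones and in 7 they all lay below, against 19.3% and 38.5% of all genes. The summed RPKM of the 78 genes was between 3741 and 4170, above the untreated range of 3354 to 3369. Of the large-subunit genes 32 were called higher and none lower, and of the small-subunit genes 10 were called higher and 4 lower.

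The largest rises at 2 μM and 6 h were in MRPS12, MRPL36 and MRPL32. MRPS12 read 56.8, 61.2 and 54.8 RPKM, all above the untreated libraries, a log2 fold change of 0.66 ± 0.06 (limma, adjusted p = 8.68e-05). MRPL36 read 46.2, 57.1 and 43.4 RPKM, again all above, by 0.66 ± 0.10 (limma, adjusted p = 0.000789). MRPL32 encodes the homolog of bacterial L32, a protein that is cut by a mitochondrial protease before it joins the ribosome. It read 34.2, 34.0 and 34.5 RPKM untreated and 51.1, 63.1 and 46.4 RPKM treated. The second treated library was the highest in MRPS12, MRPL36 and MRPL32, and the log2 fold change of MRPL32 was 0.63 ± 0.10 (limma, adjusted p = 0.00105). Of the genes named for their role, MRPL58 and MRPS18C rose by 0.47 and 0.53 (limma, adjusted p = 0.00034 and 0.00524). MRPL12 differed by 0.28 ± 0.10 (limma, adjusted p = 0.037), which turned to -0.055 after rescaling to an equal sum and was not past the threshold when any 1 of 5 libraries was left out. All 4 genes called lower belong to the small subunit. MRPS9 (chr2:105037983-105099960, plus strand), the homolog of bacterial S9, read 43.7, 44.1 and 44.0 RPKM untreated and 33.7, 34.5 and 34.0 RPKM treated. The groups were tight and far apart, at -0.36 ± 0.06 on the log2 scale (limma, adjusted p = 0.000851). MRPS14 and MRPS5, homologs of bacterial S14 and S5, and the mitochondria-specific MRPS31 fell by 0.35, 0.32 and 0.29 (limma, adjusted p = 0.00593, 0.00442 and 0.0127). MRPS5 shares exons with ZNF514.

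At 10 μM and 6 h, the number of genes called was low on the deposited scale and rested on single libraries. Called higher were 5 (6.41%) and lower 5 (6.41%), where 8.84% of all genes tested were called higher and 21.2% lower, and the split was 0 and 31 once libraries had an equal sum. The median log2 fold change was 0.04 against -0.11 over all genes, and rescaling moved the latter to -0.56. The genes called higher were MRPL32, MRPS12, MRPL36, MRPL21 and MRPS15, with log2 fold changes of 0.52, 0.42, 0.40, 0.37 and 0.36, of which MRPS12 and MRPL36 went to -0.073 and -0.085 after rescaling to an equal sum. Called lower were MRPL28 at -0.68, MRPS9 at -0.61, MRPS31 at -0.45, MRPS5 at -0.38 and MRPS14 at -0.36. The limma adjusted p values of these 10 lay between 0.00698, in MRPS9, and 0.0421, in MRPL21. MRPS9 read 31.5, 29.6 and 25.0 RPKM, all below the untreated 43.7 to 44.1, and MRPL28, the homolog of bacterial L28, read 27.5, 27.1 and 17.7 RPKM against 39.5, 37.1 and 38.1. The third treated library was the lowest in both. MRPL28 shares exons with TMEM8A. The number of genes called went to 31 without the third library, 14 of them higher and 17 lower, to 5 without the first treated library and to 1, MRPS9, without any 1 of the untreated libraries. In the third library MRPL33 read 133 RPKM, MRPS18C 54.9 and MRPL50 20.3, and its 10 highest genes took 54.2% of its summed RPKM. Whether this share bears on the genes was not tested.

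Between the doses at 6 h, the genes were lower at the higher dose in direction but without a call. Log2 differences were negative in 75 of 78 genes, with a median of -0.19 against -0.02 over all genes, and in 30 genes (38.5%) every library at 10 μM was below every library at 2 μM, against 10.8% of all genes tested. In no gene of the 78 was every library above, against 7.34% of all genes. No gene in the table was called in this comparison, 0.0% of all genes tested in either direction. At an unadjusted p under 0.05, limma found 12 of the 78 genes and 1242 of all 14601. The spread between the 10 μM libraries was wide, with a median SE of 0.13 on the log2 scale. From 6 h to 24 h at 10 μM, MRPS9 and MRPS5 were called higher, by 0.53 ± 0.12 and 0.50 ± 0.12 (limma, adjusted p = 0.0377 and 0.041), and no gene lower, where 5.8% of all genes tested were called higher and 2.06% lower. MRPS9 was at 41.4 ± 1.7 RPKM at 24 h, close to the untreated level of 43.9 ± 0.21, and MRPS5 at 35.1 ± 0.75 against 32.3 ± 1.1 untreated. Both calls ended when any 1 of 5 of the libraries was left out, and 22 genes were called without the third library at 6 h.

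Over the 4 HCT116 comparisons, 54 of the genes were called higher at least once, 8 were called lower at least once and 16 were called in none, and none was called in opposite directions, against 3.11% of all genes tested. The first 3 counts are 69.2, 10.3 and 20.5% of the genes, where the shares of the 14303 genes tested in all 4 were 31.3, 39.5 and 32.3%. After rescaling to an equal sum, 6 were called higher at least once (7.69%), 34 lower at least once (43.6%) and 38 in none (48.7%). Among all genes tested these rescaled shares were 10.8, 66.3 and 24.8%, so the 78 genes were called lower less often than genes in general. In at least 3 of the 4 comparisons 24 genes were called higher (30.8%, against 7.73% of all genes tested). After the rescaling none were, against 1.55% of all genes tested. In all 4 these were MRPS15, MRPS12, MRPL36, MRPL21 and MRPL32, 6.41% of the genes where 3.06% of all genes tested were. All 5 encode proteins with bacterial homologs, as do 48 of the 78 genes.

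**Figure D4:**
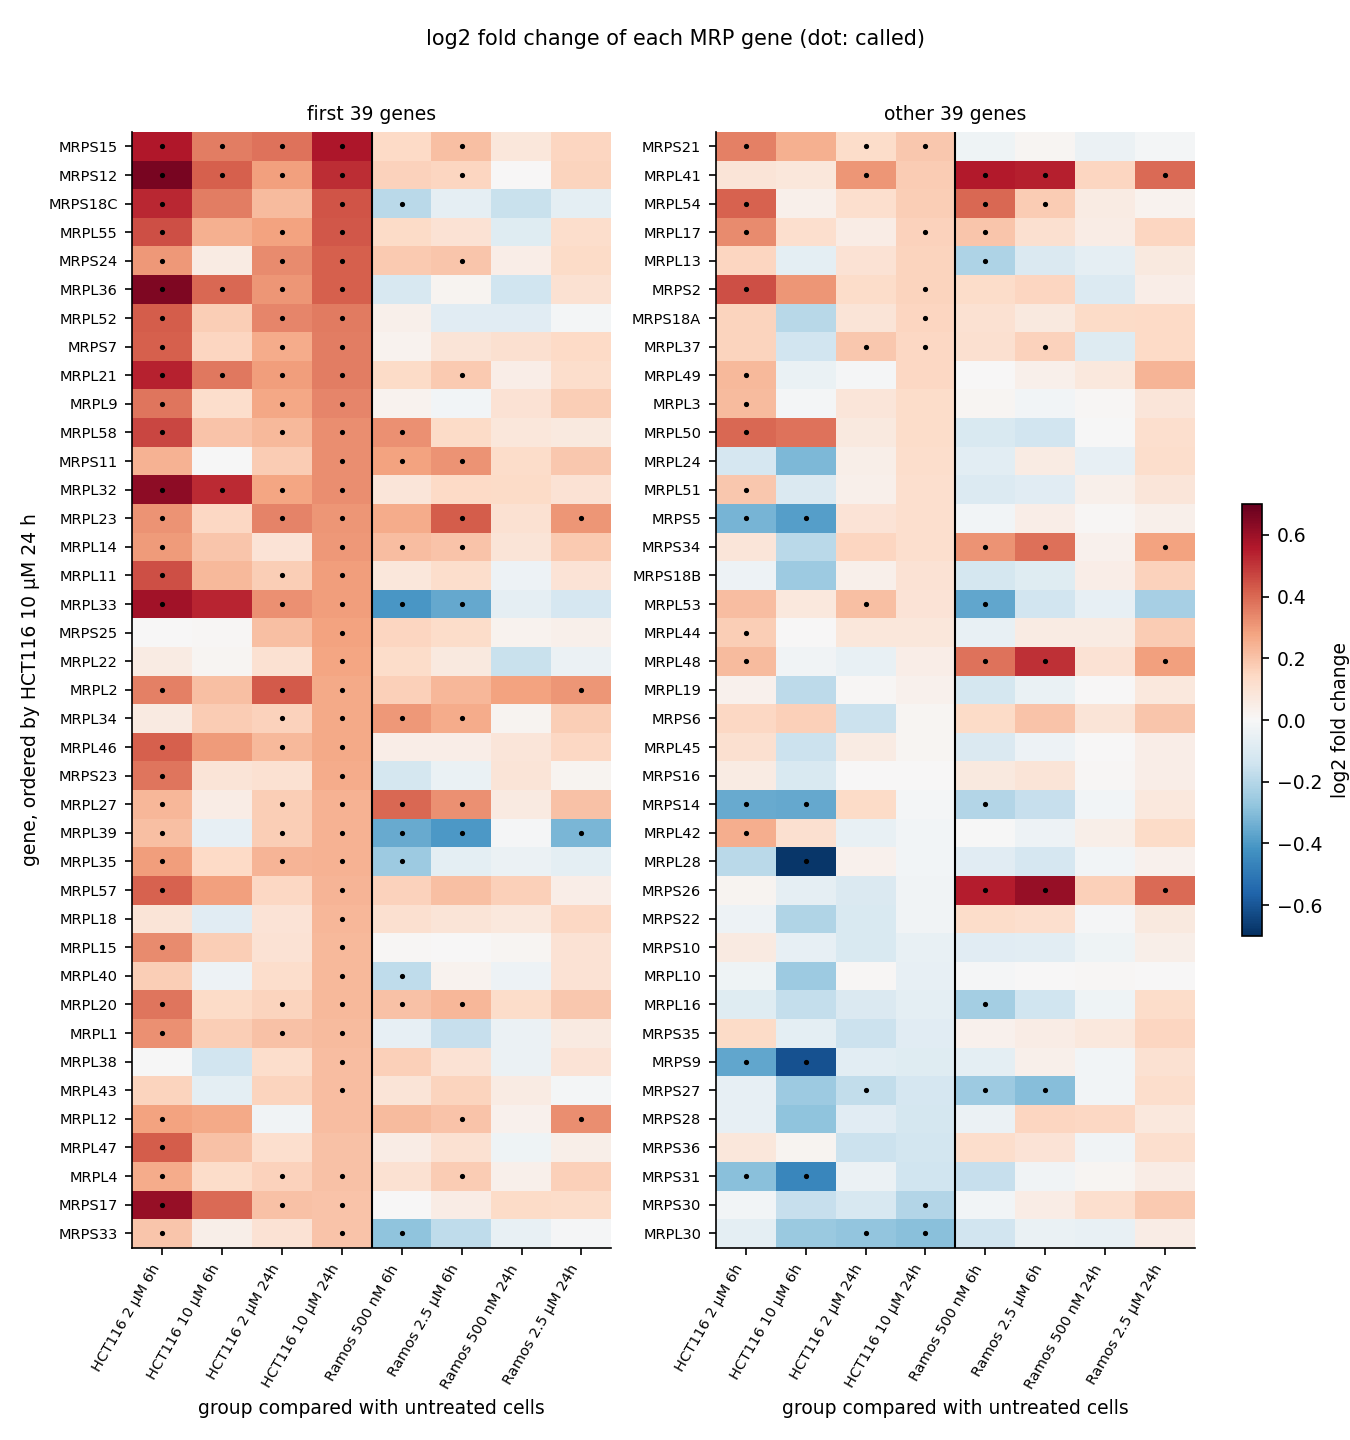
Log2 fold change against untreated cells (color, red higher and blue lower) of each of the 78 genes (rows, ordered by HCT116 at 10 μM and 24 h, in 2 panels of 39) in the 8 Omomyc groups (columns), with a dot where the gene was called. Red cells with dots fill the upper part of the HCT116 columns at 2 μM and 6 h and at 10 μM and 24 h, 42 genes each (4 and 2 after rescaling to an equal sum), and no gene has a dot in Ramos at 500 nM and 24 h.

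In Ramos at 6 h, the calls on the deposited scale went in both directions at 500 nM and were mostly higher at 2.5 μM. At 500 nM and 6 h, 12 were called higher (15.4%) and 11 lower (14.1%), where 13.8% of all genes tested were called higher and 9.73% lower, with 17 and 2 after rescaling to an equal sum and 8 and 15 with quantile normalization. At 2.5 μM and 6 h, 18 were called higher (23.1%) and 3 lower (3.85%), where 17.3% of all genes tested were called higher and 10.7% lower, with 33 and 1 after rescaling to an equal sum, 8 and 4 with median-ratio scaling and 7 and 4 with quantile normalization. The median log2 fold changes were 0.03 and 0.06, and those of all genes 0.02 and 0.03. Rescaling to an equal sum moved the medians of all genes to 0.11 and 0.16. Under the scalings tried, the genes' medians minus those of all genes were -0.008 to 0.019 at 500 nM and 0.008 to 0.039 at 2.5 μM. Leaving out single libraries gave 13 to 21 calls at 500 nM, fewest without the third treated library and 15 without the first or second treated library or the second untreated one, and 10 to 19 at 2.5 μM, 10 without the first treated library and 11 without the second or the third.

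MRPS26 and MRPL41, both mitochondria-specific, had the largest rises in Ramos at 6 h. MRPS26 (chr20:3045945-3048254, plus strand) of the small subunit read 47.2, 41.1 and 41.9 RPKM untreated, 59.8, 64.3 and 67.3 RPKM at 500 nM and 65.2, 65.9 and 67.9 RPKM at 2.5 μM. Each treated library was above all untreated ones, with log2 fold changes of 0.55 ± 0.07 and 0.61 ± 0.06 (limma, adjusted p = 0.000707 and 0.0002). MRPL41 of the large subunit read 22.2, 20.2 and 22.1 RPKM untreated, 27.1, 32.9 and 36.0 RPKM at 500 nM and 30.6, 30.2 and 34.2 RPKM at 2.5 μM. Here too no treated library overlapped the untreated ones, and the log2 fold change was 0.55 at both doses (limma, adjusted p = 0.00403 and 0.000575). MRPL48, another mitochondria-specific protein, rose by 0.51 at 2.5 μM, and MRPL27, the homolog of bacterial L27 near the peptidyl transferase center, by 0.40 at 500 nM (limma, adjusted p = 0.000273 and 0.00169). Among the genes named for their role, MRPL58 rose by 0.32 and MRPS18C fell by 0.19 at 500 nM, and MRPL12 and MRPS12 rose by 0.20 and 0.15 at 2.5 μM (limma, adjusted p = 0.0102, 0.029, 0.0368 and 0.0456). The calls of MRPS18C, MRPL12 and MRPS12 each ended when any 1 of 5 libraries was left out.

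MRPL39 and MRPL33 were lower in Ramos at 6 h. MRPL39 (chr21:25585656-25607517, minus strand), a large-subunit protein related to a tRNA synthetase, read 46.0, 38.8 and 38.5 RPKM untreated, 33.2, 31.9 and 31.0 RPKM at 500 nM and 30.6, 32.5 and 29.5 RPKM at 2.5 μM. All treated libraries lay below all untreated ones, by -0.35 ± 0.07 and -0.40 ± 0.07 on the log2 scale (limma, adjusted p = 0.00935 and 0.00484). MRPL33, the homolog of bacterial L33, was at 28.9 ± 2.6 RPKM untreated, 21.6 ± 1.7 at 500 nM and 22.4 ± 1.6 at 2.5 μM, with log2 fold changes of -0.41 and -0.36 (limma, adjusted p = 0.00765 and 0.0109). It shares exons with BABAM2 on the same strand. MRPL53 fell by 0.37 at 500 nM, and MRPS27 by 0.30 at 2.5 μM (limma, adjusted p = 0.00956 and 0.00236).

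By 24 h in Ramos, few of the genes were called on the deposited scale. At 500 nM, limma called none of the 78 genes, with 3 at an unadjusted p under 0.05, where 0.0146% of all genes tested were called higher and 0.0% lower and 763 had an unadjusted p under 0.05. At 2.5 μM, 7 were called higher (8.97%) and 1 lower (1.28%), where 3.3% of all genes tested were called higher and 1.31% lower, and 63 and 0 after rescaling to an equal sum, which moved the median of all genes to 0.24. The median log2 fold change was 0.11 against 0.05 over all genes, and 68 of the 78 values were positive. Called higher were MRPS26, MRPL41, MRPL12, MRPL2, MRPL23, MRPL48 and MRPS34, and called lower was MRPL39. MRPS26 read 56.6, 56.8 and 58.4 RPKM, above the untreated libraries, at 0.40 ± 0.06 on the log2 scale (limma, adjusted p = 0.0117). MRPL41 and MRPL12 rose by 0.39 and 0.33 and MRPL39 fell by 0.32 (limma, adjusted p = 0.0121, 0.0387 and 0.0387). Without any 1 of the 3 treated libraries no gene was called, and without the untreated libraries in turn 5, 3 and 13 were. Apart from MRPL2, the 6 genes called higher at 24 h were also called higher at 2.5 μM and 6 h, in comparisons that share the untreated libraries. From 6 h to 24 h at 2.5 μM, 13 genes were called higher (16.7%) and 4 lower (5.13%), where 12.7% of all genes tested were called higher and 10.4% lower, with 19 and 0 after rescaling to an equal sum. MRPS27 had the largest difference, from 92.4, 91.8 and 87.7 RPKM to 123, 122 and 120 RPKM. The groups were far apart, by 0.42 ± 0.03 on the log2 scale (limma, adjusted p = 7.63e-05), and the later libraries lay above the untreated ones, which read 118, 107 and 109 RPKM. MRPL48, MRPS26, MRPL54 and MRPS34 were the 4 called lower, by 0.22, 0.21, 0.15 and 0.10 (limma, adjusted p = 0.0233, 0.00259, 0.032 and 0.0437). MRPL54 was named after its value was seen. Without single libraries, 8 to 12 genes were called, 8 without the third library at 24 h, 10 without its first or without the second at 6 h and 11 without the first at 6 h. Over the 4 Ramos comparisons with untreated cells, 21 genes were called higher at least once (26.9%, against 19.9% of all genes tested). Called lower at least once were 11 (14.1%, against 13.2%). After rescaling to an equal sum these counts were 64 (82.1%, against 47.3%) and 3 (3.85%, against 6.38%).

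The response to Omomyc was then compared between the lines with an interaction term, the HCT116 log2 fold change minus that of Ramos. At 6 h, with 2 μM in HCT116 and 2.5 μM in Ramos, the difference was positive and called in 28 genes (35.9%) and negative and called in 7 (8.97%), where 12.2% of all genes tested were called positive and 28.4% negative, and rescaling to an equal sum gave 1 and 43. The median was 0.13 against -0.14 over all genes, and it exceeded the latter by 0.19 to 0.29 under the scalings tried. The rescaled shares of all genes are not given here. MRPL33 differed most, by 0.95 ± 0.16 (limma, adjusted p = 0.000878), having risen in HCT116 from 45.8 ± 1.6 to 69.9 ± 14 RPKM and fallen in Ramos. MRPL36 differed by 0.64 ± 0.12 and MRPL39 by 0.61 ± 0.10 (limma, adjusted p = 0.00196 and 0.000653). The most negative were MRPS26 at -0.59 ± 0.12, MRPL41 at -0.45 ± 0.17 and MRPS9 at -0.40 ± 0.06 (limma, adjusted p = 0.00278, 0.0496 and 0.000438). That of MRPL41 was not past the threshold when any 1 of 11 of the 12 libraries was left out.

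At 24 h, where the doses differed (10 μM in HCT116 and 2.5 μM in Ramos), 12 genes had a positive called difference (15.4%) and 7 a negative one (8.97%), where 9.65% of all genes tested were called positive and 12.9% negative, and rescaling to an equal sum gave 0 and 40. The genes' median was 0.06 against -0.02 over all genes, and it exceeded the latter by 0.012 to 0.097 under the scalings tried. MRPL39 differed by 0.56 ± 0.11 and MRPS18C by 0.51 ± 0.12, and MRPS15 by 0.42 ± 0.08 (limma, adjusted p = 0.00508, 0.0121 and 0.0035). MRPL39 was the 1 gene of the 78 called higher in HCT116 and lower in Ramos at 24 h. In HCT116 it read 36.9, 38.9 and 31.6 RPKM against 30.3, 30.1 and 29.6 untreated. MRPS26, MRPS30 and MRPL30 had differences of -0.42 ± 0.08, -0.38 ± 0.09 and -0.35 ± 0.07 (limma, adjusted p = 0.00294, 0.0101 and 0.0069). Only MRPL2 and MRPL23 were called higher in both lines at 24 h at these doses. Across the 78 genes, the log2 fold changes of the lines had a Pearson correlation of -0.0182 and a Spearman correlation of 0.0346 at 24 h, and of 0.0994 and 0.185 at 6 h, where 12 genes were called higher in both lines. These describe genes that share libraries. Line, dose and delivery reagent cannot be told apart in these comparisons.

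**Figure D5:**
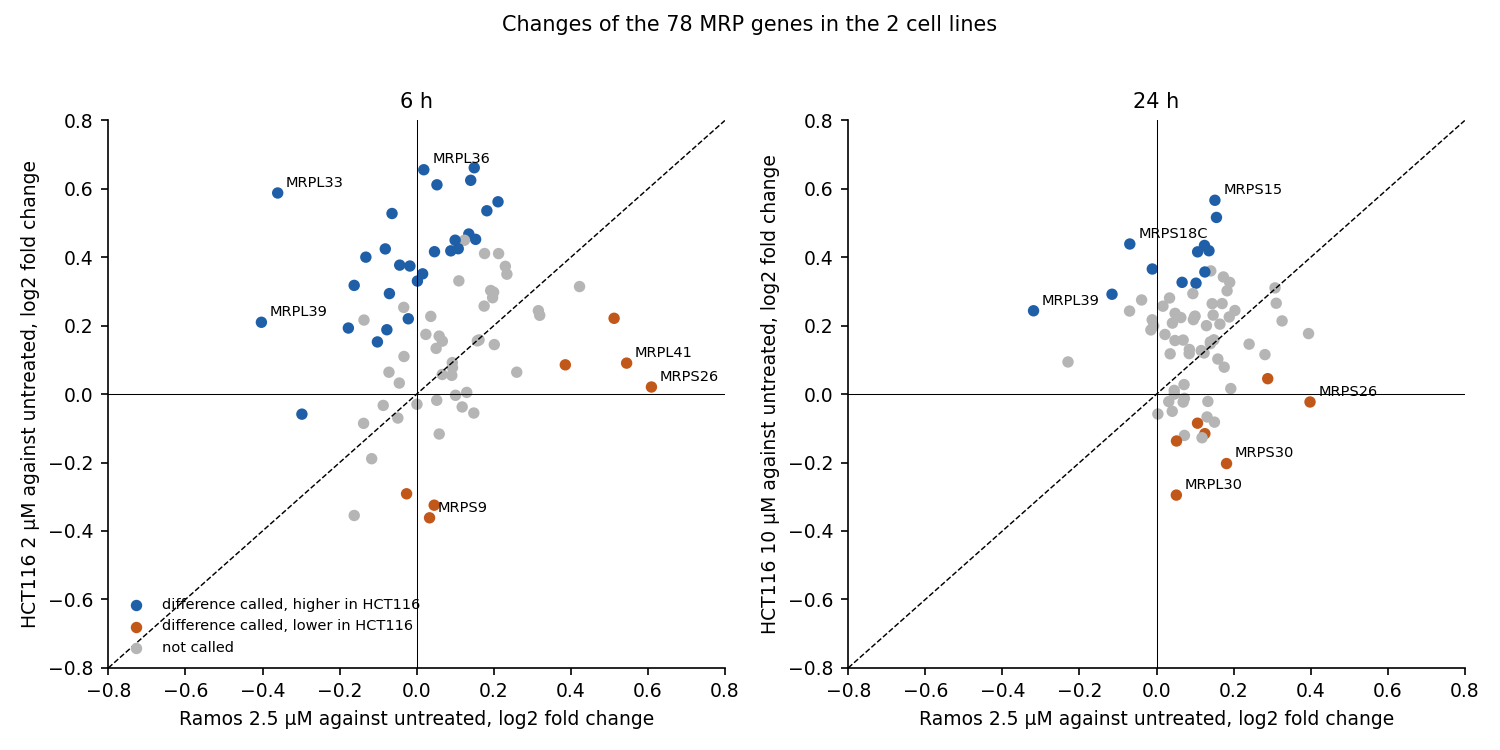
Log2 fold change of each of the 78 genes in Ramos (x) and HCT116 (y) at 6 h (left; 2.5 μM and 2 μM) and 24 h (right; 2.5 μM and 10 μM), log2(RPKM + 0.5) scale, n = 3 libraries a group. Points spread more along HCT116 than along Ramos at 24 h, and MRPL39 has a positive HCT116 and a negative Ramos value in both panels (0.21 and -0.40 at 6 h, 0.24 and -0.32 at 24 h).

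Other genes of mitochondrial translation were counted beside the 78. Of the 5 ribosomal proteins of mitochondria without an MRP symbol, 4 were called higher and none lower in HCT116 at 10 μM and 24 h, with a median log2 fold change of 0.21 and 1 and 0 called after rescaling to an equal sum. GADD45GIP1 and AURKAIP1, both parts of the mitochondrial ribosome, rose by 0.46 and 0.36 (limma, adjusted p = 0.00123 and 0.00052). Of 26 factors of ribosome assembly and ribosomal RNA modification, 6 were higher and 1 lower, with a median of 0.08 (1 and 3 after rescaling). The largest were FASTKD2, an RNA-binding protein of large-subunit assembly, at 0.51, and METTL15, a methyltransferase of the small-subunit ribosomal RNA, at -0.28 (limma, adjusted p = 0.000206 and 0.00609). Of 17 translation factors and mRNA-binding proteins, 4 were higher and 1 lower, with a median of 0.07 (0 and 2 after rescaling). Within this list SLIRP rose by 0.46 and its partner LRPPRC, with which it holds mitochondrial mRNAs, fell by 0.24 (limma, adjusted p = 0.00203 and 0.00408). Of the 13 mRNAs of the mitochondrial genome, on which these ribosomes act, 12 were called higher and none lower in HCT116, with a median log2 fold change of 1.86 (12 and 0 after rescaling, median 1.68), and in Ramos at 2.5 μM and 24 h none were higher and 6 lower, with a median of -0.50 (0 and 5 after rescaling, median -0.30). By contrast in size, the median of the 78 genes was 0.19 in HCT116 and 0.11 in Ramos in the same comparisons. Cytosolic ribosomal protein genes, 88 of 93 tested, were called higher in 14 and lower in 3 in HCT116 at 10 μM and 24 h, with a median of 0.08 (2 and 11 after rescaling), and higher in 48 and lower in 1 at 2 μM and 6 h, with a median of 0.29 (3 and 16 after rescaling). Among all genes tested, 19.5% were called higher and 15.7% lower in HCT116 at 10 μM and 24 h, 15.5 and 31.8% at 2 μM and 6 h, and 3.3 and 1.31% in Ramos at 2.5 μM and 24 h. Whether the mitochondrial genes differed from the cytosolic ones was not tested.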

How the data were processed

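RNA-Seq libraries of HCT116 and Ramos cells (30, in 10 groups of 3) were grouped by their titles. The authors deposited 1 table of RPKM values per gene, made with RSEM per the submitters' processing notes, whose version, and the aligner, genome build, annotation and strand setting, are not given in the sources used here. Such values are shares of a library per length; counts and depth are unknown, so no counting intervals are given. Ensembl identifiers were matched to GENCODE 29 (GRCh38), which held 57388 of 57992 rows (604 were not matched), and promoter windows came from RefSeq. Genes with a mean of at least 0.5 RPKM over the libraries compared were tested with limma 3.58.1 in R 4.3.3 (lmFit and eBayes with a trend) on log2(RPKM + 0.5), using only the libraries of the groups compared, with Benjamini-Hochberg adjustment over all genes tested and a threshold of 0.05. Fold changes on this scale understate those of low genes. Interactions used the 12 libraries of 4 groups. The code was tested on simulated data. Python 3.11.15 with pandas 2.3.3, numpy 2.4.6, scipy 1.17.1 (exact permutation tests) and matplotlib 3.10.9 served for summaries and plots.

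Named genes were, per comparison with untreated cells, the 3 largest called rises and falls at a mean of at least 2 RPKM (10 of each for HCT116 at 10 μM and 24 h), 8 genes chosen for their role, the 3 highest and lowest in each untreated line, and the 3 largest called differences each way between lines and in each interaction. At most 2 genes each way were named from other lists. The genes and lists were chosen with earlier results of these data known. Alternatives were pseudocounts of 0.1 and 1, no filter, median-ratio, quantile and equal-sum scaling, removal of a trend on length, a replicate block, all groups in one fit, and leaving out each library. Scaling to an equal sum of protein-coding genes was added after seeing the data.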

Additional observations from a re-analysis of the deposited data

Results flagged for a closer look

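For 6 genes at 6 h and 6 at 24 h, the response to Omomyc differed between the lines by the interaction term of limma (the HCT116 log2 fold change minus that of Ramos, 12 libraries each, the 3 largest called differences in each direction). At 6 h these were MRPL33 at 0.95, MRPL36 at 0.64, MRPL39 at 0.61, MRPS26 at -0.59, MRPL41 at -0.45 and MRPS9 at -0.40. At 24 h they were MRPL39 at 0.56, MRPS18C at 0.51, MRPS15 at 0.42, MRPS26 at -0.42, MRPS30 at -0.38 and MRPL30 at -0.35.

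After rescaling to an equal sum, MRPL36 and MRPL39 at 6 h and MRPL39, MRPS18C and MRPS15 at 24 h were no longer past the threshold (limma, adjusted p = 0.309, 0.375, 0.354, 0.595 and 0.883). The 10 highest genes took 23.8 to 31.4% of the summed RPKM in untreated HCT116 libraries, 35.8 to 40.4% at 2 μM and 6 h and 28.5 to 37.1% at 10 μM and 24 h, and in Ramos 44.3 to 49.4% untreated and 39.3 to 40.0% and 35.6 to 39.4% at 2.5 μM. The part of these shares in the differences was not tested. MRPL39 and MRPS26 were among the largest differences at both times, in fits that share the untreated libraries.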

How the results depend on the processing

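Over the genes named, 1092 of 1256 values under an alternative kept their direction and side of the threshold, 160 were no longer past it and 4 reversed. Rescaling to an equal sum kept 45, left 25 no longer past the threshold and reversed 4. An equal sum of protein-coding genes kept 69, left 5 no longer past it and reversed 0. All 4 reversals came with rescaling to an equal sum: MRPS12 at -0.073 and MRPL36 at -0.085 in HCT116 at 10 μM and 6 h, MRPL12 at -0.055 at 2 μM and 6 h and MRPS18A at -0.033 at 10 μM and 24 h. Numbers of the 78 genes called changed by over 1.5 times as follows. Rescaling to an equal sum gave 25 for HCT116 at 2 μM and 6 h, 31 at 10 μM and 6 h, 12 at 2 μM and 24 h and 9 at 10 μM and 24 h, 34 for Ramos at 2.5 μM and 6 h and 63 at 24 h, and 40 for the interaction at 24 h. No filter gave 3 for HCT116 at 10 μM and 6 h, 28 at 24 h and 0 between these times, and 13, 12, 0 and 5 for Ramos at 500 nM and 6 h, 2.5 μM and 6 h, 2.5 μM and 24 h and between the times. All groups in one fit gave 23, 6 and 15 for HCT116 at 10 μM and 6 h, 2 μM and 24 h and 10 μM and 24 h, 17 between the times at 10 μM and 9 for the interaction at 24 h. Median-ratio scaling gave 12 and 4 for Ramos at 2.5 μM and 6 h and 24 h and 0 for HCT116 between the times, quantile normalization 11 and 4, and an equal sum of protein-coding genes 13, 4 and 0. Removal of a length trend gave 4 for Ramos at 2.5 μM and 24 h and 0 for HCT116 between the times. The cause of these changes was not tested, except that no filter adjusts over more genes.

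Leaving out single libraries gave 34 to 49 for HCT116 at 2 μM and 6 h, 1 to 31 at 10 μM and 6 h, 17 to 26 at 2 μM and 24 h, 27 to 46 at 10 μM and 24 h, 13 to 21 and 10 to 19 for Ramos at 6 h at 500 nM and 2.5 μM, 0 at 500 nM and 24 h and 0 to 13 at 2.5 μM and 24 h, 0 between doses, 0 to 22 and 8 to 12 between times in HCT116 and Ramos, 58 to 64 between lines, and 27 to 38 and 13 to 19 for the interactions. In none of 13 comparisons did same-numbered replicates have all 3 correlations of their deviations over 0.1. Such a rule on 3 libraries a group cannot exclude that they were paired. A replicate block gave 19 for HCT116 at 2 μM and 24 h and 3 for Ramos at 2.5 μM and 24 h. It gave 0 for HCT116 between times and 12 for the interaction at 24 h. Other splits of calls whose share of higher calls moved by over 10 percentage points were, with the length trend removed, 5 and 3 for HCT116 at 10 μM and 6 h, 12 and 10 at 2 μM and 24 h, 24 and 7 at 10 μM and 24 h, 9 and 15 and 9 and 7 for Ramos at 6 h at 500 nM and 2.5 μM, 3 and 1 at 2.5 μM and 24 h, and 34 and 3 for the interaction at 6 h. With median-ratio scaling they were 12 and 3 for HCT116 at 10 μM and 6 h, 3 and 1 for Ramos at 2.5 μM and 24 h, 11 and 6 between its times and 41 and 2 for the interaction at 6 h, with quantile normalization 8 and 4 for HCT116 at 10 μM and 6 h, 3 and 1 for Ramos at 2.5 μM and 24 h and 15 and 5 for the interaction at 24 h, and with an equal sum of protein-coding genes 5 and 3 for HCT116 at 10 μM and 6 h and 8 and 5 and 3 and 1 for Ramos at 2.5 μM and 6 h and 24 h. Depth is unknown, so what it limits could not be assessed.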
